A study of Mus musculus with 26 samples.

Results

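Hmga1, Hmga2, Lin28b, Igf2bp1, Igf2bp2 and Igf2bp3 are genes that embryos use strongly, and several of them are used little by most adult tissues and again by many tumours. They are 6 of the 24454 genes listed in the count table and were taken by symbol. The group was chosen by the level of Hmga2, which was higher in gliomas without Notch1, so the comparisons of Notch1 loss are described here without a test of the 6 genes. RNA was sequenced from 26 samples of GFP-positive cells sorted from early mouse gliomas driven by PDGF. Every tumour, controls included, lacked Trp53. The control tumours had intact Notch signalling (n = 6). Of the mutant tumours, 6 were Notch1-/-, 5 Notch2-/-, 5 Notch1-/-Notch2-/- and 4 Rbpj-/-, the last lacking the DNA-binding partner of the activated Notch receptors. GFP came from a reporter at the Rosa locus that Cre switches on, so it marked recombined cells. The sources used here give neither the promoter that drove Cre nor the ages of the mice. They do not say that each library is its own animal, and the p-values therefore reflect no more than the scatter among libraries. That scatter was more than counting error: the lowest chi-square per gene among the 56 pairs of libraries of the same genotype was 46.2. Control replicate 1 held 1624 CPM (counts scaled to a common library total) of Xist and 0 of the Y-linked gene Ddx3y. Control replicate 2 held 0.527 and 109, so these libraries are not repeats from the same animal. How much of the scatter is technical was not tested.

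Hmga1 and Hmga2 are small chromatin proteins that bind the minor groove of AT-rich DNA and bend it, which changes how easily other factors reach their genes. Lin28b binds the precursors of the let-7 microRNAs and keeps them from maturing. The 3 Igf2bp proteins bind messenger RNAs, among them that of insulin-like growth factor 2, and affect their stability and translation. Mature let-7 in turn represses Hmga2, Lin28b and Igf2bp messages through sites in their 3′ untranslated regions (3′ UTRs), an axis known from embryonic development, neural stem cells and cancer.

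The let-7 sites are printed because they are the sequence feature of the axis just named. That axis already ties most of these genes together, so the match counts describe them and are not independent of their choice. All 8 let-7 5p microRNAs in the RefSeq table (GRCm38) share 1 seed, bases 2 to 8, set in capitals in these 3 mature sequences, of which let-7a, let-7d and let-7g come from chromosomes 13, 13 and 9:
mmu-let-7a-5p: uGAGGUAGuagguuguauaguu
mmu-let-7d-5p: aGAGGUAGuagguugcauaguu
mmu-let-7g-5p: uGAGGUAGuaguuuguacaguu
The DNA letters that pair with this seed are CTACCTC, here searched on the transcript strand of the longest annotated 3′ UTR of each gene (GENCODE M21, GRCm38). Hmga2, Lin28b and Igf2bp1 each held 4 matches, and Hmga1, Igf2bp2 and Igf2bp3 held 1 each. These are 30-base windows in the transcript's direction with the match in capitals, all in the 3′ UTR, the first and last of Hmga2 and 1 for each other gene:
Hmga2, first match, chr10:120364219-120364248, minus strand: gcgccgacattcaatttCTACCTCagcatc
Hmga2, last match, chr10:120361686-120361715, minus strand: acaatcaaaacacactaCTACCTCttaagt
Lin28b, first match, chr10:45381017-45381046, minus strand: tcacccgggcgggaagtCTACCTCatgcaa
Igf2bp1, second match, chr11:95959352-95959381, minus strand: accagcagtgctattaaCTACCTCagcccc
Igf2bp2, chr16:22059468-22059497, minus strand: aaacacacaaataaaagCTACCTCaggtgt
Igf2bp3, chr6:49086782-49086811, minus strand: cgtgcatttttactcaaCTACCTCaggtat
Hmga1, chr17:27563275-27563304, plus strand: tctcctctgttcacaaaCTACCTCtggacg
A longer match, CTACCTCA, which also holds an A opposite base 1 of the microRNA, was present 3 times in Igf2bp1 and once each in Hmga2, Lin28b, Igf2bp2 and Igf2bp3. Hmga1 had 0 of these longer matches.

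Across 20996 genes with an annotated 3′ UTR, 9.04% held at least 1 match to CTACCTC. The 3′ UTRs of these genes differ in length, from 1183 bases in Hmga1 to 6337 in Igf2bp1, so each was set beside UTRs of like length, 605 to 3146 genes apiece. Each of these sets includes the gene itself. Of those UTRs, 0.123% held as many matches as Hmga2 or more, 0.295% as many as Lin28b or more and 0.331% as many as Igf2bp1 or more. For the genes with 1 match the shares were 8.23% for Hmga1, 12.1% for Igf2bp2 and 13.3% for Igf2bp3. A match describes the letters only. Small RNAs were not measured, so whether let-7 itself differed between genotypes is not known here.

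**Figure D1:**
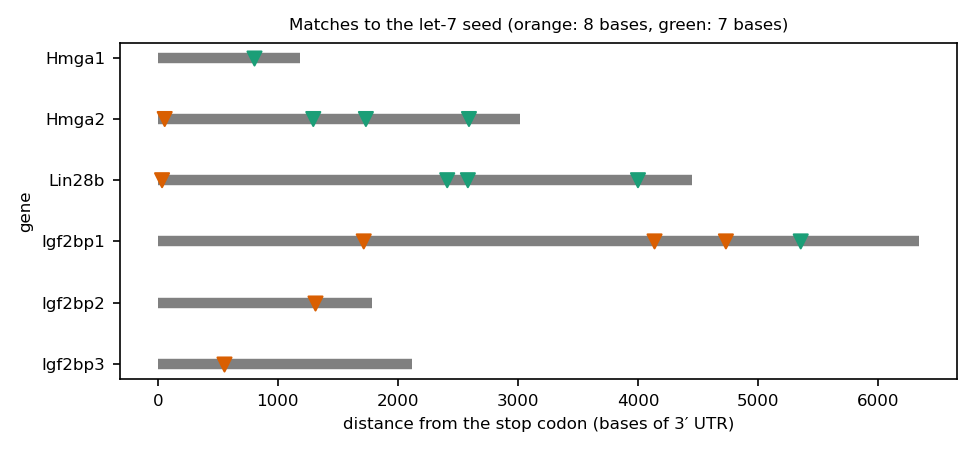
Grey bars are the longest annotated 3′ UTR of each gene, drawn from the stop codon in bases, and triangles are matches to the let-7 seed, orange for the 8-base and green for the 7-base match. Hmga2 and Lin28b each have an 8-base match close to the stop codon, at bases 58 and 36, and the 4 matches of Igf2bp1, on the longest bar, lie at bases 1715 to 5353.

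Levels of the 6 genes spanned a wide range. Per kilobase of the length in the table, the median CPM (counts scaled to a common library total) over the 26 libraries was 13.5 for Hmga2, 1.44 for Hmga1, 0.297 for Igf2bp2, 0.112 for Igf2bp3, 0.00692 for Igf2bp1 and 0.00446 for Lin28b. Hmga2 was therefore the most abundant of them, and Lin28b and Igf2bp1 were close to absent. Only 4 of the 6, Hmga1, Hmga2, Igf2bp2 and Igf2bp3, had enough counts to be tested.

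Those 4 genes also varied far more between libraries of the same genotype than most genes. The standard deviation of log2 CPM around the genotype mean was 1.84 for Hmga2, 1.86 for Igf2bp2, 1.39 for Igf2bp3 and 0.96 for Hmga1, against a median of 0.38 over all genes tested. It was larger than that of 98.9% of tested genes for Hmga2 and for Igf2bp2, 97.4% for Igf2bp3 and 91.6% for Hmga1. Among genes within 0.5 of the same mean log2 CPM the shares were 99.3% for Hmga2, 97.1% for Igf2bp2, 91.4% for Igf2bp3 and 85.5% for Hmga1.

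Total counts ran from 30868828 to 48103535 per library. As a check of the labels, Notch2 was 6.14 to 8.58 CPM in Notch2-/- against 9.42 to 16.4 in the controls, Rbpj was 20.4 to 52.0 CPM in Rbpj-/- against 52.9 to 68.0, and Notch1 RNA was not lower in Notch1-/- (88.2 to 214 CPM against 71.2 to 148). Notch2 was 9.43 to 12.9 CPM in Notch1-/-Notch2-/-, within the control range. The part of each gene that was removed is not given, and counts over a whole gene check such a label poorly, so genotypes are used as labelled. In 3 libraries, control replicate 6 and Notch2-/- replicates 3 and 4, Xist and the Y-linked gene Ddx3y were both at 10 CPM or more, so these hold RNA of both sexes. The 8 oligodendrocyte precursor and glioma markers (Olig2, Pdgfra, Sox10 and others) summed to 7468 to 18700 CPM in every library. Markers of other cells were present too and differed between genotypes: the 12 microglia and macrophage markers summed to 340 to 1454 CPM in the controls and 287 to 654 in Notch2-/-, against at most 254 in Notch1-/-, 217 in Rbpj-/- and 148 in Notch1-/-Notch2-/-. The 7 mature oligodendrocyte markers (Mbp, Mog and others) summed to 8369 to 22164 CPM in the controls. Their range was 2921 to 8004 CPM in Rbpj-/- and 1632 to 5188 in Notch1-/-Notch2-/-, and it was wide in Notch2-/- (1865 to 17754) and Notch1-/- (1848 to 18503). Fewer cells of a type and less RNA per cell cannot be told apart in sorted bulk samples. The microglia and macrophage sums of Notch1-/-, Rbpj-/- and Notch1-/-Notch2-/- all lay below those of the controls. So did the mature oligodendrocyte sums of Rbpj-/- and Notch1-/-Notch2-/-. Fits with a marker score as a covariate therefore separate genotype from marker level poorly. A call lost in such a fit does not show why it was lost.

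Hmga2 (chromosome 10, bases 120361268 to 120476469 of GRCm38, protein coding) is the gene on which the group was formed. In the 6 controls its level was 15.2, 1.92, 2.08, 52.9, 3.41 and 4.65 CPM in replicates 1 to 6. In the 6 Notch1-/- libraries it was 364, 3.80, 338, 27.5, 118 and 118 CPM. Replicates 1 and 3 of Notch1-/- were the highest of all 26 libraries, whereas replicates 2 and 4 lay inside the control range, so 4 of the 6 lay above every control. The means were 161 ± 154 CPM (SD, n = 6) in Notch1-/- and 13.4 ± 20.0 (SD, n = 6) in the controls, a log2 fold change of 3.59 ± 0.98 (SE).

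The 5 Notch1-/-Notch2-/- libraries held 129, 112, 62.6, 47.4 and 85.6 CPM of Hmga2. They were the most even group, with a 2.72-fold range, close to the 3.24-fold of Rbpj-/-. The range was 95.6-fold in Notch1-/-, 43.3-fold in Notch2-/- and 27.6-fold in the controls. Only the lowest of them, replicate 4, lay below a control, replicate 4 of that group. The mean was 87.4 ± 33.9 CPM (SD, n = 5) and the log2 fold change against control 2.71 ± 0.97 (SE). Both these differences chose the gene and carry no test. With the mean log2 CPM of the microglia and macrophage markers as a covariate they were 0.19 in Notch1-/- and -0.060 in Notch1-/-Notch2-/-, and with that of the mature oligodendrocyte markers 0.51 and -0.75.

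In the Notch2-/- libraries, replicates 1 to 5, Hmga2 was 22.3, 154, 3.56, 9.98 and 82.3 CPM, and in the Rbpj-/- libraries, replicates 1 to 4, it was 78.0, 87.6, 27.1 and 60.2 CPM. Rbpj-/- overlapped the controls through control replicate 4 alone, and the other 5 controls lay below every Rbpj-/- library. The Notch2-/- libraries ran from the control range up to the range of Notch1-/-.

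By median, the order of Hmga2 levels was Notch1-/- (118 CPM), Notch1-/-Notch2-/- (85.6), Rbpj-/- (69.1), Notch2-/- (22.3) and control (4.03). Hmga2 did not pass the test in any of the comparisons that did not choose it. Against control, its log2 fold change was 2.24 ± 0.99 (SE; adjusted p = 0.121; 95% interval from the SE 0.31 to 4.18) in Rbpj-/- and 2.03 ± 0.95 (adjusted p = 0.323; interval 0.17 to 3.88) in Notch2-/-. Rbpj-/- differed from Notch2-/- by 0.21 ± 1.02 (adjusted p = 0.952; interval -1.79 to 2.22), with no library in common with the comparison that chose the gene. Notch1-/-Notch2-/- differed from Notch1-/- by -0.88 ± 0.94 (adjusted p = 0.742; interval -2.73 to 0.96), and both of the last 2 intervals include 0 and leave room for several-fold differences. Notch2-/- and control, also neighbours in the order, differed by more than 2 SE with an interval above 0, and only the adjusted p did not pass. Rbpj-/- and Notch1-/-Notch2-/- were not tested against each other, and their ranges overlap. The controls are those of the comparison that chose Hmga2, so its values against control in Rbpj-/- and Notch2-/- are not independent of the choice. The Rbpj-/- value rests on control replicate 4: without it the log2 fold change was 3.53, with an adjusted p of 0.0162, which is given as a description of that library's weight.

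**Figure D2:**
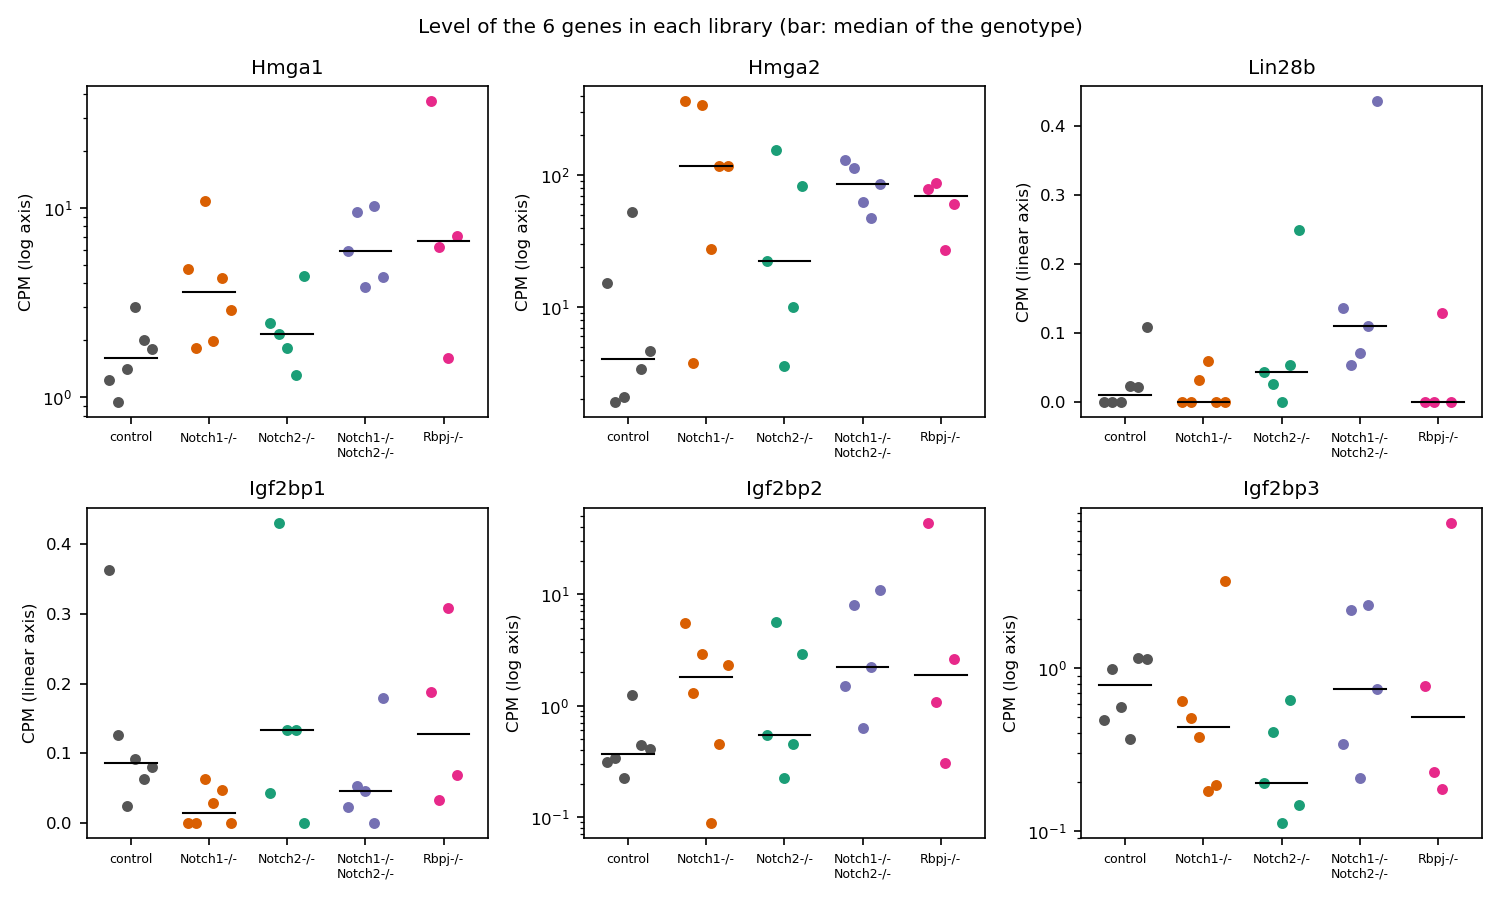
Each point is 1 library, placed by genotype, with CPM on a log axis for Hmga1, Hmga2, Igf2bp2 and Igf2bp3 and on a linear axis from 0 for Lin28b and Igf2bp1, and bars are genotype medians. Most Hmga2 points outside the control group lie above most controls, 1 Rbpj-/- library stands far above the rest for Hmga1 and for Igf2bp2, and Lin28b and Igf2bp1 never exceed 0.436 and 0.430 CPM.

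Markers of mature oligodendrocytes were mostly lower in libraries with more Hmga2. The Notch1-/- library with the least Hmga2, replicate 2, had a mature oligodendrocyte sum of 18503 CPM, whereas the other 5 ran from 1848 to 4764. Among those 5 was replicate 4, whose Hmga2 also lay inside the control range. Control replicate 4, the control with most Hmga2, had the lowest sum of the controls, 8369 CPM. Rbpj-/- replicate 3, lowest in Hmga2, had 8004 CPM against 2921 to 3001 in the other 3. In Notch2-/-, replicate 2 had the most Hmga2 and the lowest sum, 1865 CPM, and replicate 3 the least Hmga2 and the highest sum, 17754 CPM. Notch2-/- replicate 5 was high in both, with 82.3 CPM of Hmga2 beside 12428 CPM of the markers. In Notch1-/-Notch2-/- the sums ran from 1632 to 5188 CPM and Hmga2 from 47.4 to 129 CPM.

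Over the 26 libraries, after the genotype mean was subtracted, Hmga2 correlated with the mean log2 CPM of the 7 mature oligodendrocyte markers at r = -0.772 (permutation within genotypes, adjusted p = 4e-04) and rho = -0.638 (adjusted p = 0.0111). Without the 2 libraries farthest from the median of Hmga2 r was -0.684, and without the 3 libraries of both sexes -0.734. The 8 lists compared this way were chosen after the marker values had been seen. With the 16 cell cycle genes r was 0.659 (adjusted p = 0.0182) and 0.476 without the 2 farthest libraries, and rho was 0.4995 and did not pass (adjusted p = 0.0752). With the microglia and macrophage list r was -0.454 (adjusted p = 0.123), and with the oligodendrocyte precursor and glioma list -0.092 (adjusted p = 0.809). The part of other cells in the differences of Hmga2 was not tested.

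**Figure D3:**
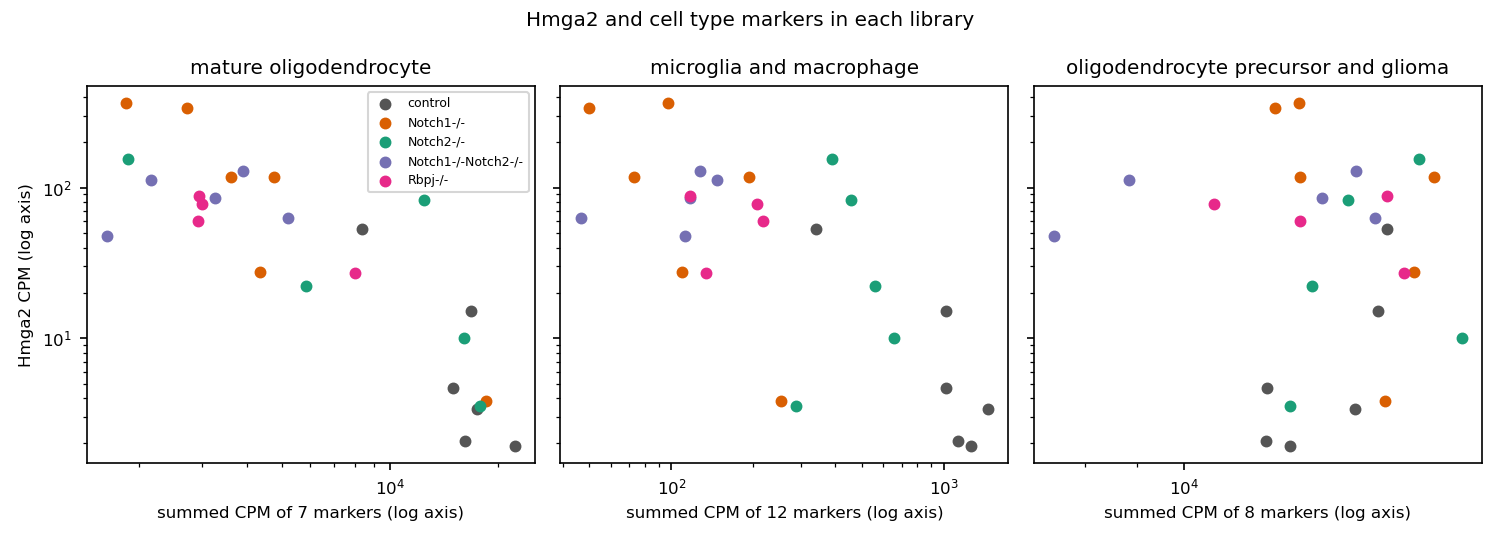
Each point is 1 library, coloured by genotype, with Hmga2 CPM on the vertical log axis and the summed CPM of a marker list on the horizontal log axis. The library with 364 CPM of Hmga2 has a mature oligodendrocyte sum of 1848 CPM and the library with 1.92 CPM has 22164, whereas no such order shows along the oligodendrocyte precursor and glioma sum.

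Hmga1 (chromosome 17, bases 27556574 to 27563672) was higher in Rbpj-/- than in the controls. Its level in the controls was 1.23, 0.948, 1.40, 3.02, 2.02 and 1.81 CPM. In Rbpj-/- it was 36.8, 6.25, 1.62 and 7.13 CPM, so 3 of 4 libraries lay above every control and replicate 1 held by far the most. The log2 fold change was 2.90 ± 0.60 (SE; adjusted p = 0.00484), and Hmga1 rose. With Igf2bp2, 2 of the 4 tested genes rose in that comparison, where 15.2% of all genes tested changed and 7.97% rose. Without Rbpj-/- replicate 1 the log2 fold change of Hmga1 was 1.52 and no longer passed (adjusted p = 0.0602). With the microglia and macrophage score in the fit it was 2.17 (adjusted p = 0.307), and with the mature oligodendrocyte score 1.66 (adjusted p = 0.446).

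Against Notch2-/-, whose libraries held 2.47, 2.15, 1.82, 1.31 and 4.39 CPM, Hmga1 was also higher in Rbpj-/-, by 2.41 ± 0.63 (adjusted p = 0.0486), and 1 of the 4 tested genes passed there beside 1.70% of all genes. That call was at the threshold and ended without any 1 of 7 of the 9 libraries: without Rbpj-/- replicate 1 the log2 fold change was 1.04 (adjusted p = 0.53), and without Rbpj-/- replicate 4 or any single Notch2-/- library it was 2.25 to 2.74 (adjusted p = 0.0523 to 0.136). Without the 3 libraries of both sexes it was 2.11 (adjusted p = 0.322). Notch2-/- against control gave 0.48 ± 0.56 (adjusted p = 0.681), where 0 of the 4 tested genes and 0.295% of all genes passed with edgeR. Of the 4, only Hmga2 had an unadjusted p under 0.05 with edgeR, beside 14.8% of all genes tested, and DESeq2 and limma voom called 0 of the 4.

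Notch1-/- held 4.80, 1.83, 10.9, 2.00, 4.28 and 2.90 CPM of Hmga1, and Notch1-/-Notch2-/- held 5.93, 9.51, 3.83, 10.2 and 4.31 CPM. All 5 Notch1-/-Notch2-/- libraries lay above all 6 controls, as 11.6% of all genes tested did. The log2 fold changes against control, described only, were 1.36 ± 0.54 (SE) and 1.96 ± 0.57. The difference between these groups, 0.60 ± 0.55, did not pass (adjusted p = 0.698), where 0 of the 4 tested genes and 0.640% of all genes passed with edgeR. None of the 4 had an unadjusted p under 0.05 there, beside 11.6% of all genes tested, and DESeq2 and limma voom called 0 of the 4.

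The Hmga1 values carry a limit of the counting. A near-identical copy, Hmga1b on chromosome 11 (bases 120762794 to 120764392), had 88.1% to 99.0% as many counts as Hmga1 in each of the 26 libraries, with a median of 96.4%. Of the 50-base stretches in Hmga1b, 89.0% also occur in Hmga1 transcripts. Values given for Hmga1 therefore cannot be assigned to 1 of these copies. For Hmga2 the transcribed pseudogene Hmga2-ps1 had 2 to 69 counts per library against 83 to 15621 for Hmga2, which is 0.142% to 38.5% of the Hmga2 counts of the same library.

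Lin28b (chromosome 10, bases 45376617 to 45486314) had 63 counts in all 26 libraries together, 0 in 11 of them and at most 17 in 1. A count of 0 allows up to 3 counts, so at this depth the data separate low levels only poorly, and such limits cover counting error only. All 5 Notch1-/-Notch2-/- libraries held counts, at 0.136, 0.0530, 0.0700, 0.109 and 0.436 CPM. Notch1-/- was at 0 in 4 of 6 libraries, Rbpj-/- in 3 of 4, the controls in 3 of 6 and Notch2-/- in 1 of 5. The second highest value, 0.248 CPM, was in Notch2-/- replicate 5. Its close relative Lin28a, the other let-7 blocking protein, had 7 counts in all.

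Igf2bp1 (chromosome 11, bases 95957163 to 96005944) had 103 counts in all, 0 in 5 libraries, and at most 0.430 CPM, in Notch2-/- replicate 2. Its median was 0.133 CPM in Notch2-/-, 0.128 in Rbpj-/-, 0.0862 in the controls, 0.0467 in Notch1-/-Notch2-/- and 0.0147 in Notch1-/-. Notch1-/- had 5 counts over its 6 libraries and the controls 32, of which control replicate 1 gave 15. Neither Lin28b nor Igf2bp1 had enough counts for a test.

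Igf2bp2 (chromosome 16, bases 22059009 to 22163299) was the most uneven of the RNA-binding proteins. In the controls it was 0.314, 0.337, 0.226, 1.23, 0.442 and 0.405 CPM, and control replicate 4 was again the highest. In Rbpj-/- it was 43.9, 1.09, 0.309 and 2.65 CPM, a 142-fold range in which replicates 2 and 3 lay inside the control range. The log2 fold change was 4.59 ± 1.16 (SE; adjusted p = 0.0132), and Igf2bp2 rose by this test. Replicate 1 decides it: without that library the log2 fold change was 1.45 (adjusted p = 0.328). It was 2.03 with limma voom and quality weights (adjusted p = 0.285), 4.36 with the microglia and macrophage score (adjusted p = 0.284) and 2.36 with the mature oligodendrocyte score (adjusted p = 0.505).

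In Notch2-/- Igf2bp2 was 0.546, 5.62, 0.222, 0.454 and 2.90 CPM, where replicates 2 and 5 were high as they were for Hmga2. The log2 fold change against control was 1.97 ± 1.06 (adjusted p = 0.382). Notch1-/- held 5.52, 1.29, 2.91, 0.0881, 0.452 and 2.30 CPM and Notch1-/-Notch2-/- held 1.501, 8.05, 0.630, 2.24 and 10.8 CPM. Against control these differ by 2.08 ± 1.03 (SE) and 3.23 ± 1.09, described only. Rbpj-/- against Notch2-/- gave 2.62 ± 1.15 (adjusted p = 0.245), which became -0.53 without Rbpj-/- replicate 1, and Notch1-/-Notch2-/- against Notch1-/- gave 1.15 ± 1.01 (adjusted p = 0.687).

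For Igf2bp3 (chromosome 6, bases 49085218 to 49215469) the controls held 0.482, 0.990, 0.577, 0.366, 1.16 and 1.13 CPM, which is higher by median (0.784 CPM) than in Notch1-/-Notch2-/- (0.743), Rbpj-/- (0.501), Notch1-/- (0.436) or Notch2-/- (0.197). Its highest values were 7.84 CPM in Rbpj-/- replicate 4, 3.43 in Notch1-/- replicate 6, and 2.28 and 2.43 in Notch1-/-Notch2-/- replicates 2 and 4. The remaining Rbpj-/- libraries held 0.772, 0.230 and 0.180 CPM. In none of these 3 genotypes was the library highest for Igf2bp3 also the highest for Hmga2.

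No comparison called Igf2bp3. Its log2 fold change was 1.53 ± 0.90 (SE; adjusted p = 0.251) in Rbpj-/- against control, which turned to -0.97 without Rbpj-/- replicate 4. It was -1.40 ± 0.92 (adjusted p = 0.466) in Notch2-/- against control and 2.92 ± 1.00 (adjusted p = 0.136) in Rbpj-/- against Notch2-/-. The last of these passed with the Wald test of DESeq2 (adjusted p = 0.0404), with the microglia and macrophage score (4.51, adjusted p = 0.0179) and without Rbpj-/- replicate 3 (3.31, adjusted p = 0.0453). Notch1-/-Notch2-/- against Notch1-/- gave 0.44 ± 0.86 (adjusted p = 0.876), and the values against control were 0.17 ± 0.83 in Notch1-/- and 0.61 ± 0.86 in Notch1-/-Notch2-/-, described only.

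**Figure D4:**
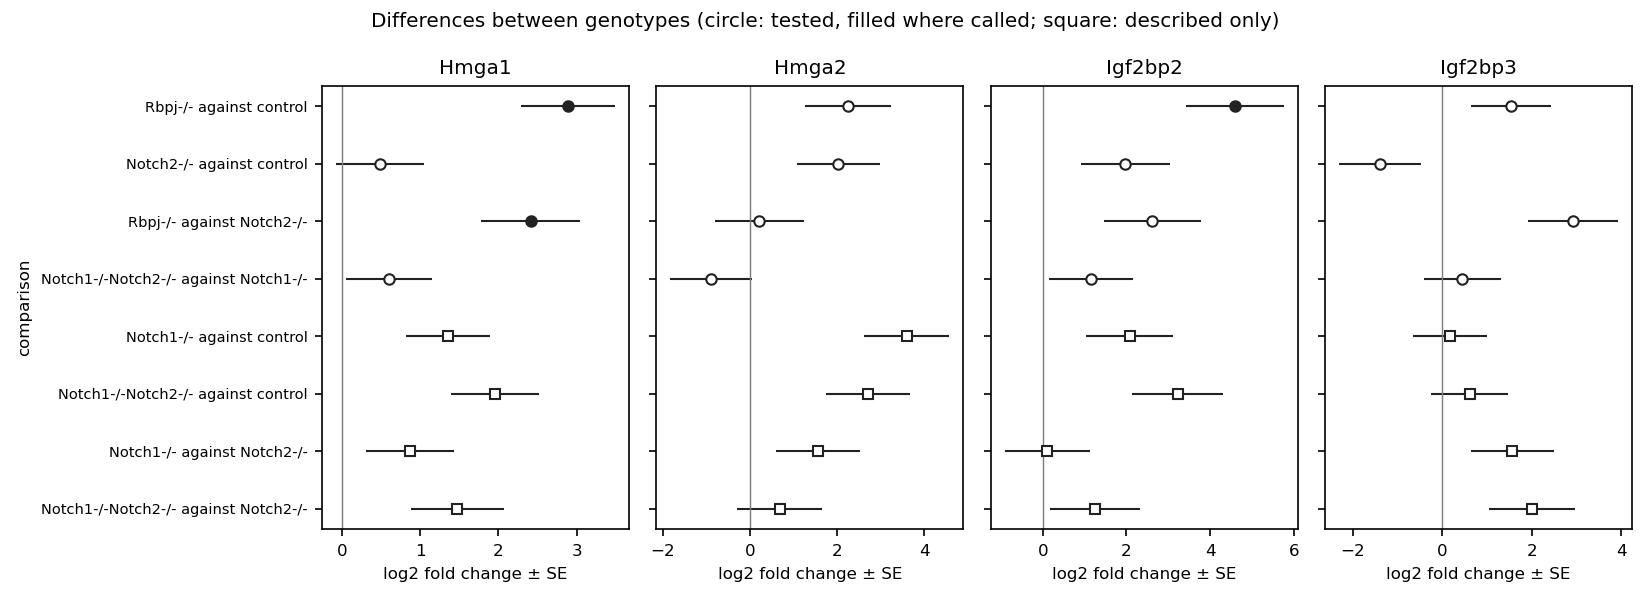
Points are log2 fold changes of the 4 tested genes in 8 comparisons and bars their standard errors. Circles were tested and are filled where the adjusted p passed, and squares are comparisons of Notch1 loss, described only. The 3 filled points are Hmga1 in both comparisons of Rbpj-/-, at 2.90 and 2.41, and Igf2bp2 in Rbpj-/- against control, at 4.59.

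Within genotypes, libraries that were high for 1 of Hmga1, Hmga2 and Igf2bp2 were often high for the others. On log2 CPM minus the genotype mean over the 26 libraries, Hmga1 and Hmga2 correlated at r = 0.525 and rho = 0.574, Hmga2 and Igf2bp2 at r = 0.535 and rho = 0.502, and Hmga1 and Igf2bp2 at r = 0.697 and rho = 0.564. For each of these 3 pairs, permutation within genotypes gave an adjusted p of 0.0073 for r and 0.0207 for rho over the 6 pairs. Without the 2 libraries farthest from the median of the first gene r was 0.632, 0.628 and 0.497. Without the 3 libraries of both sexes r was 0.523, 0.485 and 0.696. Many other genes were closer to each of these. By r of log2 CPM without that subtraction, among 15616 genes, Hmga1 had rank 1193 and Igf2bp2 rank 1518 in likeness to Hmga2. Hmga2 had rank 1171 for Hmga1 and 330 for Igf2bp2. Igf2bp2 had rank 547 for Hmga1, and Hmga1 rank 34 for Igf2bp2. The share of all genes that correlate as strongly within genotypes was not computed.

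For Igf2bp3 r was 0.183 with Hmga1 (permutation, adjusted p = 0.708) and 0.0076 with Hmga2 (adjusted p = 0.97). With Igf2bp2 its r was 0.401 (adjusted p = 0.223) and its rho 0.555 (adjusted p = 0.0207), so only the rank correlation passed. Whether these values differ from those of the other 3 pairs was not tested.

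**Figure D5:**
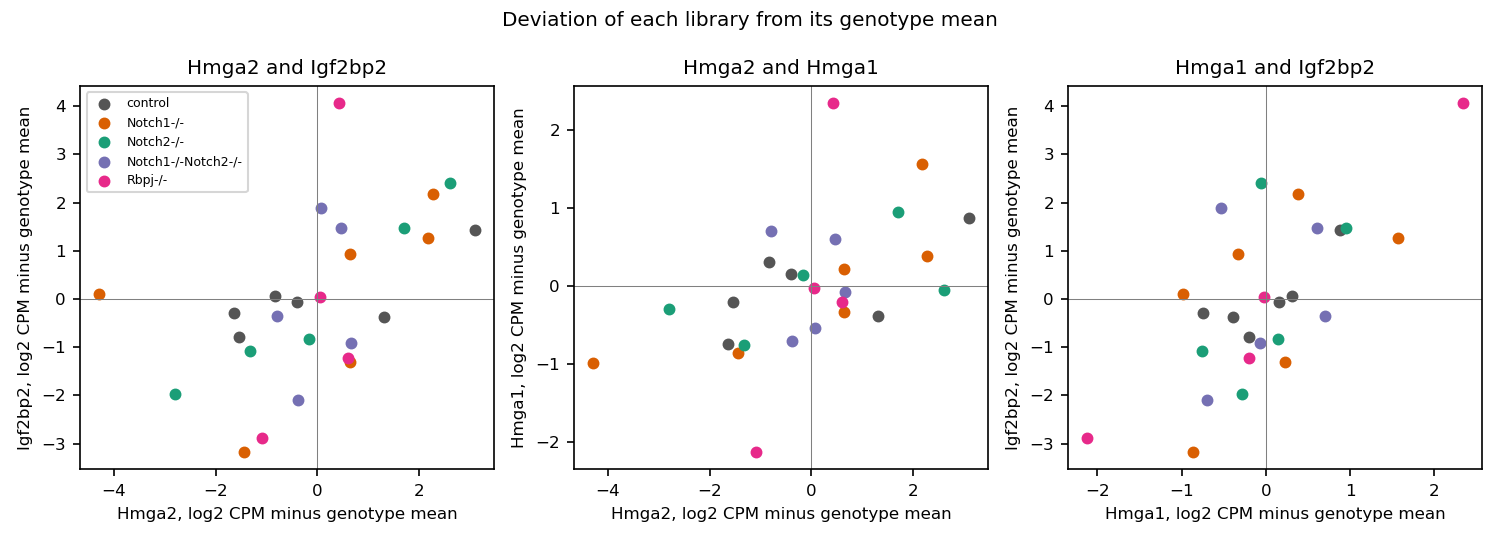
Each point is 1 library, coloured by genotype, and both axes are log2 CPM minus the mean of its genotype. The points run from lower left to upper right in all 3 pairs, with r of 0.535, 0.525 and 0.697, and an Rbpj-/- library lies at the top of each plot.

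The genes most like Hmga2 over the 26 libraries, among 12015 whose log2 CPM averaged 1 or more, were Osbpl6, an oxysterol-binding protein relative (r = 0.965), Moxd1 (0.956), the long non-coding RNA Pvt1 next to Myc (0.945), Amotl1, a regulator of YAP (0.943), Pwwp3b (0.938) and the extracellular matrix gene Fbn2 (0.937). After subtraction of the genotype mean Osbpl6 led again (r = 0.952), followed by Liph (0.941), Oxr1 (0.939), Marchf4 (0.938) and Stc1 (0.936), and Moxd1 and Pvt1 remained among the first 10. For Hmga1 the closest after its copy were the heparan sulfate proteoglycan Sdc1 (0.952) and Cdkn2a (0.949), which encodes p16 and p19Arf. For Igf2bp2 the closest was Cd44, a hyaluronan receptor (0.856), and for Igf2bp3 Slc12a7, a potassium chloride cotransporter (0.783). These values describe likeness over libraries that share genotype and cell makeup, with no test.

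Several genes known as let-7 targets were higher in Rbpj-/- than in the controls. Of 29 tested in that list, 4 rose and 0 fell: Myc, a growth-promoting transcription factor (88.6 ± 26.9 CPM, n = 4, against 31.1 ± 7.52, n = 6; log2 fold change 1.51 ± 0.23 SE, adjusted p = 0.000505), the cell cycle gene Ccnd1 (1.16 ± 0.32, adjusted p = 0.0185), Stard13 (0.60 ± 0.19) and Hic2 (0.60 ± 0.20). The median log2 fold change was 0.26 over the list and 0.07 over all genes. Beside the 7.97% of all genes that rose, 4 of 29 is not far from the background. In the same comparison 11 of 12 microglia and macrophage markers fell, with a median of -2.84, and 5 of 7 mature oligodendrocyte markers fell, with a median of -2.24. With either marker score in the fit 0 of these 4 calls were left, and leaving out 1 library gave 1 to 5, the fewest without Rbpj-/- replicate 2 and 2 without Rbpj-/- replicate 4 or control replicate 2, 3 or 6. Both marker sums of Rbpj-/- lay below those of every control, so the fits with a score do not tell genotype from marker level.

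In Notch1-/- 10 of 29 let-7 targets rose and 0 fell beside 13.2% of all genes that rose, and in Notch1-/-Notch2-/- 10 of 29 rose and 0 fell beside 18.3%. Myc was the first of them in both, with log2 fold changes of 1.29 ± 0.21 (adjusted p = 0.000291) and 1.77 ± 0.22 (adjusted p = 8.65e-06). Cdc25a, a phosphatase that starts DNA replication, gave 0.59 ± 0.15 and 0.85 ± 0.16. These comparisons share their controls with that of Rbpj-/-. Of the microglia and macrophage markers 12 of 12 fell in Notch1-/- (median -3.09) and 11 of 12 in Notch1-/-Notch2-/- (median -3.49), and of the endothelial markers 8 of 8 fell in both. With the microglia and macrophage score in the fit the 10 and 10 calls became 0 and 3, and with the mature oligodendrocyte score 0 and 0. Without Notch1-/-Notch2-/- replicate 4 or control replicate 6 the count in Notch1-/-Notch2-/- was 6. In Rbpj-/- against Notch2-/-, 1 of 29 rose, again Myc (1.41 ± 0.24, adjusted p = 0.00275), beside 0.589% of all genes.

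Some genes that process let-7 and other microRNAs were higher. In Rbpj-/- 5 of 14 rose and 0 fell beside 7.97% of all genes that rose, with a list median of 0.36: Khsrp, which helps let-7 precursors mature (0.78 ± 0.17, adjusted p = 0.00587), Drosha (0.44 ± 0.12) and Dgcr8 (0.30 ± 0.10), which together cut primary microRNAs, the exporter Xpo5 (0.40 ± 0.11) and the silencing protein Ago2 (0.96 ± 0.29). In Notch1-/- 10 of 14 rose and in Notch1-/-Notch2-/- 8 of 14, beside 13.2% and 18.3% of all genes, with medians of 0.38 and 0.48 beside 0.03 and 0.01. With either marker score in the fit 0 calls of this list were left in any of these 3 comparisons. The count in Rbpj-/- was 2 without Rbpj-/- replicate 4 and 3 without its replicate 2 or control replicate 3. That in Notch1-/- was 5 without control replicate 2, 3 or 6 or Notch1-/- replicate 1, 3 or 6. Tut4, which adds uridines to let-7 precursors held by Lin28 proteins, gave 1.05 ± 0.31 in Notch1-/- (adjusted p = 0.0168).

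RNA-binding partners of the Igf2bp proteins rose in 4 of 11 cases in Rbpj-/-, among them Pabpc1, which coats poly(A) tails (0.69 ± 0.15, adjusted p = 0.006), and the stress granule protein G3bp1 (0.54 ± 0.12, adjusted p = 0.00687). In Notch1-/- and in Notch1-/-Notch2-/- 7 of 11 rose, and in none of these 3 comparisons did a member of this list fall. The shares of all genes that rose were 7.97%, 13.2% and 18.3%. With either marker score in the fit 0 calls of this list were left in all 3, and the count in Notch1-/- was 4 without control replicate 2, 3 or 5 or Notch1-/- replicate 1 or 6. Of 9 RNAs known to be bound by Igf2bp proteins, 3 rose in Rbpj-/-: Myc, Cd44 (42.2 ± 44.6 CPM against 4.24 ± 1.66; 3.32 ± 0.91, adjusted p = 0.0186) and the imprinted non-coding RNA H19 (46.2 ± 43.1 against 4.63 ± 3.27; 3.32 ± 0.92, adjusted p = 0.0202). In Notch1-/- 3 of 9 rose, Myc, H19 and Btrc, and in Notch1-/-Notch2-/- 3 of 9, Myc, H19 (5.44 ± 0.98, adjusted p = 0.000265) and Cd44. Without Rbpj-/- replicate 1 only 1 of 9 passed in Rbpj-/-. With the microglia and macrophage score the 3 counts were 0, 0 and 3, and with the mature oligodendrocyte score 0, 0 and 1.

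In the insulin-like growth factor axis Igf2r, which clears the growth factor from the cell surface, rose by 0.57 ± 0.16 in Rbpj-/- (adjusted p = 0.0191), 1 of 12 in that list. It also rose in Notch1-/- (0.77 ± 0.14, adjusted p = 0.000845), where 4 of 12 rose, with Irs2, Igf1r and Irs1, and in Notch1-/-Notch2-/- (0.82 ± 0.15, adjusted p = 0.000274), where 1 of 12 rose. Among other fetal growth genes 2 of 9 rose in Rbpj-/-, Dlk1 (3.43 ± 0.85, adjusted p = 0.0121) and H19. The same pair rose in Notch1-/- and in Notch1-/-Notch2-/-, where Afp fell (-2.72 ± 0.97, adjusted p = 0.0318) at levels of 0.0367 ± 0.0579 CPM (n = 5) against 0.252 ± 0.147 (n = 6). The shares of all genes that rose are 7.97% in Rbpj-/-, 13.2% in Notch1-/- and 18.3% in Notch1-/-Notch2-/-. The growth factor count in Rbpj-/- was 0 without replicate 4 of that group and 3 without control replicate 4, and the fetal growth count was 0 without Rbpj-/- replicate 1. In Notch1-/- the growth factor count ran from 2, without control replicate 2, 3 or 6, to 8, without Notch1-/- replicate 5. The fetal growth count there ran from 1, without those controls or Notch1-/- replicate 3, to 4, without Notch1-/- replicate 5. In Notch1-/-Notch2-/- the growth factor count was 4 without control replicate 4 and 3 without Notch1-/-Notch2-/- replicate 5. With either marker score the growth factor count was 0 in all 3 comparisons.

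Of the other HMG proteins, Hmgn2, which binds nucleosomes and not AT-rich DNA, fell in Rbpj-/- (80.2 ± 25.1 CPM against 195 ± 48.2; -1.28 ± 0.29, adjusted p = 0.00831), and 0 of 11 in the list rose there. It fell by 1.33 on the log2 scale in Notch1-/- and by 1.28 in Notch1-/-Notch2-/-. Hmgxb4 rose in both, and Hmgb2 and Hmgb3 rose in the latter. Of 8 genes known downstream of Hmga2, Cdkn2a, which in other cells is lowered by Hmga2, rose in Rbpj-/- (35.9 ± 33.8 CPM against 7.80 ± 6.30; 2.20 ± 0.60, adjusted p = 0.0179) and in Notch1-/-Notch2-/- (1.83 ± 0.57, adjusted p = 0.0151), and in Notch1-/- 0 of 8 passed with edgeR, 1 with DESeq2 and 2 with limma voom. Without Rbpj-/- replicate 1, or with either marker score, 0 of 8 passed in Rbpj-/-, and with either score 0 passed in Notch1-/-Notch2-/-. In Notch1-/- 3 of 8 passed without replicate 2 of that group. Ccna2 was the second to rise in Notch1-/-Notch2-/-, at 0.65 ± 0.26. Of 16 cell cycle genes 6 rose in Rbpj-/-, 3 in Notch1-/- and 10 in Notch1-/-Notch2-/-, with Top2a and Foxm1 in all 3, beside 7.97%, 13.2% and 18.3% of all genes. The count in Notch1-/- was 0 without control replicate 2 or 3 or Notch1-/- replicate 3 or 6 and 10 without Notch1-/- replicate 2, and that in Rbpj-/- was 3 without its replicate 4. With either marker score 0 cell cycle genes passed in these 3 comparisons.

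In Notch2-/- against control and in Notch1-/-Notch2-/- against Notch1-/- no gene of the 9 lists passed with edgeR. Of the 112 list genes tested, 22 and 15 had an unadjusted p under 0.05, beside 14.8% and 11.6% of all genes. Summed over the lists, DESeq2 made 1 call in each of these comparisons, and limma voom made 22 and 4. The lists share some members: Myc, H19, Dicer1, Igf2, Igf1r and Ccna2 each stand in 2 or more. Summed over the 9 lists, 27 calls in Rbpj-/- against control became 0 with either marker score as a covariate and 22 without the 3 libraries of both sexes. In Notch1-/- 42 became 0 with the microglia and macrophage score, 2 with the mature oligodendrocyte score and 32 without those libraries, and in Notch1-/-Notch2-/- 49 became 9, 2 and 42. As the marker levels differ by genotype, the fits with a score do not show why calls were lost.

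The promoters of 5 of the 6 genes were found in the RefSeq table (GRCm38.p6; 250 bases before to 50 after the start). Of these, 0 held TGGGAA, the core letters of the sequence that Rbpj binds, on either strand, and 25.6% of 32851 promoter windows did. With 5 genes, 0 cannot be told from that share. The windows of Hmga1, Hmga2, Igf2bp2 and Igf2bp3 were 57.7% to 76.7% GC and that of Lin28b 39%, against a median of 52.7%. The windows of Lin28b (bases 45470152 to 45470451) and Igf2bp3 (bases 49214905 to 49215204) lay inside the gene spans given above. They are therefore not at the outermost start of those spans. This covers only these letters in these windows.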

How the data were processed

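RNA of 26 samples of GFP-positive cells sorted from early mouse gliomas was taken up in TRIzol and made into stranded libraries (TruSeq Stranded RNA LT, Illumina), per the labels' protocols. The authors deposited 1 table of raw counts per gene with Entrez identifiers and a gene length. The submitters' processing notes name STAR and mm10. No source used here names the counting tool, annotation or strand setting, which leaves overlapping or near-identical genes uncertain. Total counts were 30868828 to 48103535 per library.

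Symbols came from a RefSeq table (GRCm38.p6), which matched 24374 of 24454 genes. Each library was grouped by its label. In R 4.3.3, filterByExpr left 15617 genes, TMM scaled the libraries, and all 26 entered 1 quasi-likelihood fit of edgeR 4.0.16 by genotype. P-values were adjusted over all genes (Benjamini-Hochberg, threshold 0.05). A gene rose, fell or changed only where it passed. Standard errors are the log2 fold change over the root of F. Log2 CPM used a prior count of 2. Tested for the 6 genes were Rbpj-/- against control, Notch2-/- against control, Rbpj-/- against Notch2-/- and Notch1-/-Notch2-/- against Notch1-/-. The procedure was tested on simulated counts.

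The 6 genes, the 9 pathway lists and the 8 cell type lists were chosen with earlier results of these data known. Named from each list were up to 4 genes with the smallest adjusted p, with others in counts of 5 or fewer added after their values were seen, along with Cdc25a, Tut4, Dgcr8 and Irs1; the genes most like each member were ranked by Pearson's r, leaving out predicted genes. Values of some list genes that this rule gives are not reported here. Alternatives were size factors of DESeq2, no filter, 10 CPM in 4 libraries, limma 3.58.1 voom, DESeq2 1.42.0 (Wald test), a replicate block, only the compared libraries, either of 2 marker scores as a covariate, leaving out the 3 libraries of both sexes, and each library left out. Correlations used 100000 permutations within genotypes.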

Additional observations from a re-analysis of the deposited data

How the results depend on the processing

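Of 312 alternative values of the 4 genes in the tested comparisons, 275 kept direction and side of the threshold, 22 lost the call, 5 gained it and 10 turned. The cause was not tested. The score of mature oligodendrocyte markers was added as a covariate after the data were seen. Genes changed in Rbpj-/- against control, 2378, were 1533 with 10 CPM in 4 libraries, 3747 with limma voom, 1222 with only the compared libraries, 35 with the microglia and macrophage score, 30 with the mature oligodendrocyte score and 1492 without the 3 libraries of both sexes. Genes changed in Notch2-/- against control, 46, were 16, 1790, 182, 18, 20 and 12 in that order, and 344 with the Wald test of DESeq2. Genes changed in Rbpj-/- against Notch2-/-, 266, were 92 with 10 CPM in 4 libraries, 742 with limma voom, 88 with only the compared libraries, 165 with the mature oligodendrocyte score, 58 without the 3 libraries and 728 with DESeq2. Genes changed in Notch1-/-Notch2-/- against Notch1-/-, 100, were 61 with no filter, 40 with 10 CPM in 4 libraries, 359 with limma voom, 21 with only the compared libraries, 41 without the 3 libraries and 284 with DESeq2. Without each library in turn these counts ran from 1132 to 3292, 21 to 83, 71 to 1110 and 18 to 199.

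Same-numbered libraries of different genotypes mostly did not deviate together (47 pairs, median r = -0.044, 13 over 0.1, 4 of 26 libraries correlated best with their own number). The numbers were therefore not used as pairs. This check cannot exclude that some same-numbered libraries share a source of scatter, as their highest r was 0.627. With the replicate number as a replicate block the counts were 1304, 25, 133 and 28 in the order above, Igf2bp2 in Rbpj-/- against control was 3.54 (adjusted p = 0.101) and Hmga1 in Rbpj-/- against Notch2-/- was 2.21 (adjusted p = 0.176).

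Hmga2 in Notch1-/- against control, 3.59, was 0.19 with the microglia and macrophage score, 0.51 with the mature oligodendrocyte score and 3.18 to 4.89 without each library. In Notch1-/-Notch2-/-, 2.71, it was -0.060, -0.75 and 2.48 to 4.00. Signs that turned were those of Hmga2 in Rbpj-/- against Notch2-/- (-1.38 and -1.22 with these scores, -0.45 without the 3 libraries, -0.088 and -0.054 without Notch2-/- replicate 3 or 4, in a range up to 1.10 over the libraries left out) and against control (-0.54 with the mature oligodendrocyte score), of Igf2bp3 in Rbpj-/- against control (-0.16 with that score, -0.97 without Rbpj-/- replicate 4, in a range up to 1.91) and in Notch1-/-Notch2-/- against Notch1-/- (-0.29 with that score), and of Igf2bp2 in Rbpj-/- against Notch2-/- (-0.53 without Rbpj-/- replicate 1, in a range up to 3.52). Hmga1 in Rbpj-/- against Notch2-/- also lost its call with no filter (2.40, adjusted p = 0.058), limma voom (1.00, adjusted p = 0.253), only the compared libraries (2.41, adjusted p = 0.198), the microglia and macrophage score (1.98, adjusted p = 0.153) and the mature oligodendrocyte score (1.56, adjusted p = 0.36), and Hmga2 in Rbpj-/- against control gained one with limma voom (3.42, adjusted p = 0.039). The 4 genes were not tested where a filter removed them. Depth limits Lin28b and Igf2bp1.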
